A study of Mus musculus with 6 samples.

Results

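The aryl hydrocarbon receptor (AHR) and its direct targets were followed in Th9 cultures of CD4+ T cells with and without Cul5. The genes were taken by name: the receptor gene Ahr, its partner Arnt, its repressor Ahrr, and the target genes Cyp1a1, Cyp1b1, Tiparp and Nqo1. These are 7 of the 22559 genes with an estimated count above 0 in at least 1 sample, and all 7 also have a row among the 11242 entries of the authors' gene-level table. The group was selected on measured values of these same samples, since it was proposed after Cyp1a1 had been seen to be lower in the Cul5-deficient cells. The difference between the genotypes in the 7 genes is therefore given as a description, without a test.

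The samples were 3 WT and 3 Cul5 cKO cultures from mice of the C57BL/6 strain. Both genotypes carried floxed Cul5 (Cul5 fl/fl), with the Cul5 cKO mice also carrying CD4-Cre, and the controls of the study were littermates without Cre. CD4-Cre deletes in developing thymocytes, so CD8 T cells of these mice lose Cul5 too, and the loss precedes the culture. Cul5 is the scaffold of a ubiquitin ligase, and the deletion removes exons 9 to 11. Naive CD4+ T cells from spleen (lymph nodes are also named in the study's methods) of mice aged 8 to 10 weeks were purified with magnetic beads. Over 48 h in RPMI medium they received plate-bound anti-CD3 (2 µg/ml), soluble anti-CD28 (1 µg/ml), TGF-β (2.5 ng/ml), IL-4 (20 ng/ml) and an antibody to IFN-γ (10 µg/ml), and no AHR ligand is listed among the additions. The labels number the samples but do not say whether each came from a separate mouse, so p-values measure the spread between these samples, which may be technical.

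AHR is a transcription factor that sits in the cytosol with HSP90 and its co-chaperones until it binds a small molecule, such as a dioxin, a plant indole or a breakdown product of tryptophan. It then enters the nucleus, pairs with ARNT and binds xenobiotic response elements, whose core is GCGTG. Cyp1a1 and Cyp1b1, which encode cytochrome P450 enzymes that oxidize many of these ligands, are its best known targets. The loop is closed by AHRR, which competes for ARNT, and by TIPARP, an enzyme that ADP-ribosylates AHR. In T cells AHR is known mainly from Th17, Tr1 and Th22 cells, and it has also been studied in Th9 cells.

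Cul5 itself was measured at 64.4, 69.3 and 65.0 CPM (counts scaled to library size, here adjusted for composition by edgeR's TMM method) in the WT samples and at 10.6, 14.2 and 13.1 CPM in the Cul5 cKO samples, so every library matched its label. The fitted log2 fold change was -2.39 ± 0.11 (SE), with an adjusted p of 0.000992 (quasi-likelihood test of edgeR, Benjamini-Hochberg adjustment). Depth was between 23111689 and 23454552 estimated counts in 5 libraries and 3944803 in WT replicate 3, which makes low genes less precise there. Of 12925 genes tested, 133 (1.03%) passed an adjusted p under 0.05, 79 of them higher (0.611%) and 54 lower (0.418%) in Cul5 cKO. CPM did not overlap between the genotypes in 27.5% of the genes tested, and 21.3% had an unadjusted p under 0.05. The 7 markers of CD4 T cells added up to between 2766 and 2879 CPM in WT and between 2659 and 2910 CPM in Cul5 cKO, and 1 of them, Cd28, passed the test (log2 fold change -1.17 ± 0.15 SE, adjusted p = 0.0205 by edgeR with Benjamini-Hochberg adjustment). Sums of the 6 B cell markers lay between 82.0 and 113 CPM in WT and were 42.2, 35.5 and 121 CPM in Cul5 cKO replicates 1, 2 and 3. Sums of the 6 myeloid markers lay between 4.27 and 8.65 CPM in WT and between 3.69 and 12.8 CPM in Cul5 cKO, those of the 2 CD8 T cell markers between 5.76 and 6.53 CPM and between 4.30 and 11.6 CPM, and those of the 4 NK cell and ILC markers between 4.40 and 11.4 CPM and between 6.04 and 16.3 CPM. Epithelial and liver markers, 5 genes of tissues where Cyp1a1 is strongly inducible, stayed at or under 2.12 CPM in every sample, with Alb at 0.

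The promoters of the AHR targets are shown so that matches to the core GCGTG can be read in them. Whether AHR and ARNT bind at any of these matches was not measured. RefSeq (GRCm38.p6) gives a window from 250 bases before to 50 after the gene start for 6 of the 7 genes, with none for Ahr. Capitals mark GCGTG, or CACGC where the match lies on the other strand. The windows are chr9:57697363-57697662 (+ strand) for Cyp1a1, chr13:74292282-74292581 (- strand) for Ahrr, chr17:79715012-79715311 (- strand) for Cyp1b1 and chr3:65528197-65528496 (+ strand) for Tiparp, each printed 5′ to 3′ along its gene.
Cyp1a1: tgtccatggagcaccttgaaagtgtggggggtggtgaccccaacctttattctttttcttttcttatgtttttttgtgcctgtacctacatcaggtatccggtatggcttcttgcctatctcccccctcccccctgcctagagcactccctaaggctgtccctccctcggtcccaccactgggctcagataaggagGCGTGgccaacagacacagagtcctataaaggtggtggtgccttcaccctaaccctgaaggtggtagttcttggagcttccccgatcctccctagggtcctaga
Ahrr: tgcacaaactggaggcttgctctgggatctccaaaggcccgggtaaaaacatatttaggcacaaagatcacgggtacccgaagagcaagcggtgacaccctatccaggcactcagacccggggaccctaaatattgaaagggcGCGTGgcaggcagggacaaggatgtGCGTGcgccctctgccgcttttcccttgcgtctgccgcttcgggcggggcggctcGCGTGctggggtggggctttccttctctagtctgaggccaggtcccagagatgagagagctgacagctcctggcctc
Cyp1b1: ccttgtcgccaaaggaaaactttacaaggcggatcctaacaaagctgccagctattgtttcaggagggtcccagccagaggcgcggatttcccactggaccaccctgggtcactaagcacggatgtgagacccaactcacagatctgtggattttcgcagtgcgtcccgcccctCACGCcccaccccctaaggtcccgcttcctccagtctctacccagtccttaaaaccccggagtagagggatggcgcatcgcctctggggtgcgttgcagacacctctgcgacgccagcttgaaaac
Tiparp: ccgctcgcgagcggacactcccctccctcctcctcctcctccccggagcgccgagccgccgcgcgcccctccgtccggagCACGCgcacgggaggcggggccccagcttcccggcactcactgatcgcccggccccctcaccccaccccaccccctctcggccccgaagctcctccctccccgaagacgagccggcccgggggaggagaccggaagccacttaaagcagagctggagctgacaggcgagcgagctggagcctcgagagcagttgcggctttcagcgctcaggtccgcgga

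Searched on both strands, GCGTG occurs in 32.4% of all 32817 such windows, so 1 match in a window is common. Cyp1a1 has 1, which begins 54 bases before the start. Ahrr has 3, beginning 107, 82 and 27 bases before the start, and 3 or more are found in 3.91% of all windows. The last of them is also the only match among the 6 genes to the longer form TNGCGTG, which 5.06% of all windows hold. Cyp1b1 and Tiparp have 1 each, on the other strand, with the first letter 76 and 170 bases before the start. Arnt (chr3:95434140-95434439, + strand) has 1, and Nqo1 (chr8:107403156-107403455, - strand) has none. The core of the antioxidant response element, TGACNNNGC, through which NRF2 acts on Nqo1, is in 12.4% of all windows and is found at 2 places in that of Arnt but not in that of Nqo1. In the levels given below, Ahrr with 3 matches overlapped between the genotypes and Cyp1a1 with 1 did not. Whether the matches bear on the differences between the genotypes was not tested. The enhancer through which ligands act on Cyp1a1 is known to lie further upstream, outside this window.

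The receptor gene overlapped between the genotypes. Ahr (chr12:35497974-35535038, - strand, GRCm38) was at 31.1, 43.5 and 34.7 CPM in WT replicates 1, 2 and 3 and at 20.7, 39.4 and 34.3 CPM in Cul5 cKO replicates 1, 2 and 3. The groups overlapped, with Cul5 cKO replicate 1 the lowest of the 6 samples. The fitted log2 fold change was -0.22 ± 0.24 (SE), and without Cul5 cKO replicate 1 it was 0.01. In bulk RNA, fewer cells that express a gene and less RNA of it per cell cannot be told apart.

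Arnt (chr3:95434388-95497240, + strand), which encodes the partner that AHR shares with the hypoxia factors, was at 89.4, 83.5 and 86.0 CPM in WT and at 94.8, 77.1 and 74.5 CPM in Cul5 cKO. The highest and the lowest sample were both Cul5 cKO samples. Its log2 fold change of -0.07 ± 0.10 (SE) was the smallest in size of the 7.

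**Figure D1:**
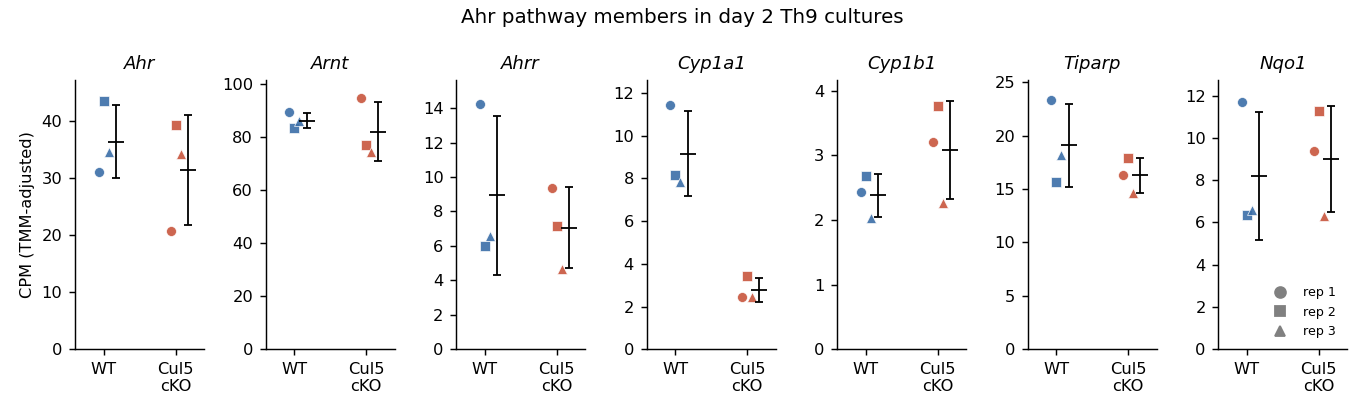
Levels of the 7 genes in CPM (TMM-adjusted, each vertical axis starting at 0) in the 3 WT (blue) and 3 Cul5 cKO (red) samples; the symbol gives the replicate number, and the black bar the mean ± SD. In Cyp1a1 the 3 Cul5 cKO samples (2.43 to 3.42 CPM) lie under the 3 WT samples (7.84 to 11.4 CPM), while the genotypes overlap in the other 6 genes.

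The feedback genes overlapped as well. Ahrr (chr13:74211118-74292331, - strand) was at 14.3, 6.01 and 6.58 CPM in WT and at 9.38, 7.14 and 4.67 CPM in Cul5 cKO, a log2 fold change of -0.38 ± 0.39 (SE). Replicate 1 was the highest sample of each genotype, and without WT replicate 1 the log2 fold change was 0.18 in place of -0.38. Tiparp (chr3:65528410-65555518, + strand) was at 23.4, 15.7 and 18.2 CPM in WT and at 16.3, 17.9 and 14.6 CPM in Cul5 cKO. WT replicate 2 was lower than Cul5 cKO replicates 1 and 2, and the log2 fold change was -0.24 ± 0.17 (SE).

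Among the enzymes, Cyp1a1 stood out. Cyp1a1 (chr9:57687928-57703824, + strand) was at 11.4, 8.18 and 7.84 CPM in WT replicates 1, 2 and 3, and at 2.43, 3.42 and 2.45 CPM in Cul5 cKO replicates 1, 2 and 3. These values rest on 268, 189 and 31 estimated counts in WT and on 56, 78 and 55 in Cul5 cKO. The lowest WT sample was thus above the highest Cul5 cKO sample, also at the lower bound of its exact 95% Poisson interval of counting error (5.33 to 11.1 CPM in WT replicate 3, against 2.70 to 4.27 CPM in Cul5 cKO replicate 2). The WT mean was 9.15 ± 1.99 CPM (SD, n = 3), that of Cul5 cKO 2.77 ± 0.57 CPM (SD, n = 3), and the fit gave a 3.35-fold lower level, which is a log2 fold change of -1.74 ± 0.23 (SE). Its log2 fold change was the 40th lowest of the 11615 genes that averaged 1 CPM or more. Because Cyp1a1 had been seen to be lower before the group was proposed, this rank only describes that choice. The B cell marker sums of the same samples were 113, 82.0 and 82.7 CPM in WT and 42.2, 35.5 and 121 CPM in Cul5 cKO, so that Cul5 cKO replicates 1 and 2 were below every WT sample, as in Cyp1a1, and replicate 3 was above them. Their part in the difference was not tested.

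Cyp1b1 (chr17:79701537-79715061, - strand), the second P450 enzyme of the pathway, went the other way. It was at 2.43, 2.68 and 2.02 CPM in WT and at 3.21, 3.77 and 2.27 CPM in Cul5 cKO, with a log2 fold change of 0.34 ± 0.27 (SE). The lowest Cul5 cKO sample lay between the WT samples, and WT replicate 3 rests on 8 counts, whose exact 95% Poisson interval runs from 0.874 to 3.99 CPM.

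Nqo1 (chr8:107388225-107403206, - strand), a quinone reductase driven by both AHR and the oxidative stress factor NRF2, was at 11.7, 6.36 and 6.58 CPM in WT and at 9.38, 11.3 and 6.31 CPM in Cul5 cKO. The highest value was a WT sample and the lowest a Cul5 cKO sample. Its log2 fold change was 0.09 ± 0.30 (SE), and it was 0.48 without WT replicate 1 and -0.09 without Cul5 cKO replicate 2.

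All 7 genes passed the filter on low counts. Of these, 1 passed an adjusted p under 0.05, and 1 did not overlap in CPM, Cyp1a1 in both cases; these counts belong to the contrast that chose the genes and are set beside the shares of all genes given above (1.03% and 27.5%) without being read as a result. The fitted log2 fold change was below 0 in 5 and above 0 in 2 of the 7, with a median of -0.22 over the 7 and of -0.01 over all genes tested. Without Cyp1a1, the largest size was that of Ahrr, -0.38, and the median size over all genes tested was 0.17.

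Levels between genes were compared per length, as TPM, which divides counts by transcript length and scales every sample to the same sum. In WT, Arnt was the highest at 37.6 ± 0.41 TPM (SD, n = 3), above Ahr at 11.1 ± 2.4 TPM, and these ranges did not overlap. Tiparp at 8.58 ± 0.89 TPM, Nqo1 at 8.33 ± 3.0 TPM, Cyp1a1 at 5.16 ± 1.1 TPM and Ahrr at 3.49 ± 2.1 TPM followed, and from Ahr down to Ahrr each gene overlapped with the next. Cyp1b1 was the lowest at 0.829 ± 0.19 TPM. In Cul5 cKO, Arnt (35.1 ± 4.8 TPM, SD, n = 3) again led, followed by Nqo1 (9.05 ± 2.6 TPM), Ahr (8.41 ± 2.7 TPM), Tiparp (5.80 ± 0.48 TPM) and Ahrr (3.21 ± 1.6 TPM). Cyp1a1 stood below Ahrr at 1.55 ± 0.32 TPM, with overlapping ranges, and above Cyp1b1 at 0.972 ± 0.29 TPM, without overlap.

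How the values were made changed whether the groups overlapped for Tiparp and Cyp1b1 but not for Cyp1a1. In the authors' gene-level table of log2 CPM, the difference between the mean of Cul5 cKO and that of WT was -1.67 for Cyp1a1, -0.54 for Tiparp and 0.82 for Cyp1b1. In these 3 genes the groups did not overlap. The share of all entries of that table without overlap was not counted, so this is a description. For Ahr, Ahrr, Arnt and Nqo1 the differences in the table were -0.41, -0.32, -0.09 and 0.15, with overlap. For Cyp1a1 the table followed the summed counts closely, with an SD over the 6 samples of 0.036 in the log2 difference between them, while for Tiparp and Cyp1b1 this SD was 0.21 and 0.33. For Ahr it was 0.19, against 0.030 for TPM, and the -0.41 of the table compares with -0.22 from summed counts.

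**Figure D2:**
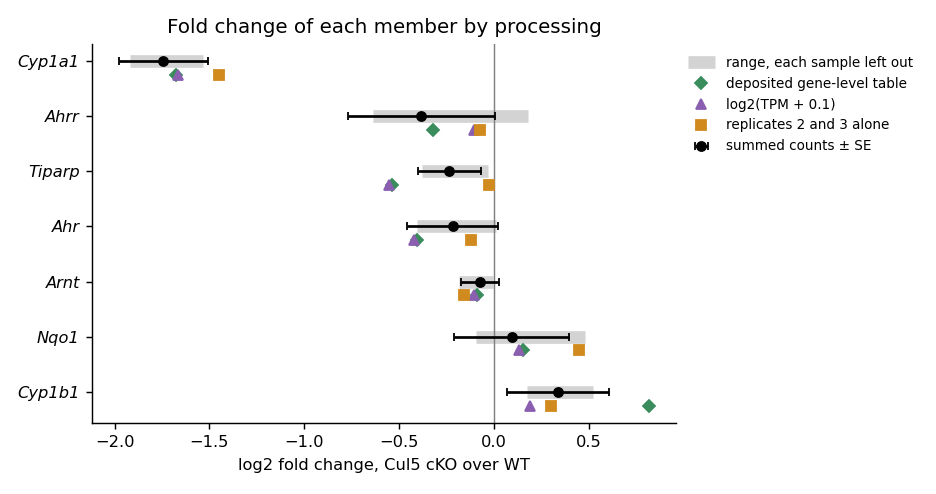
Log2 fold change (Cul5 cKO over WT) of each gene from the summed counts (black, ± SE), its range when each sample is left out in turn (grey), and its value from the deposited gene-level table (green), from log2(TPM + 0.1) (purple) and from replicates 2 and 3 alone (orange). Cyp1a1 stays between -1.92 and -1.45 in all of these, whereas Tiparp runs from -0.55 to -0.03 and Cyp1b1 reaches 0.82 in the gene-level table only.

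Transcripts showed where the scales parted. The share of all transcripts without overlap was not counted, so the overlaps of single transcripts given below are a description. For Tiparp the table followed TPM (SD 0.030). The coding transcript Tiparp-201 (4191 bases) was at 23.0, 15.1 and 17.2 CPM in WT and at 16.2, 17.9 and 14.5 CPM in Cul5 cKO, and so overlapped. The noncoding Tiparp-203 (594 bases) was at 0.379, 0.593 and 1.07 CPM in WT and at 0.137, 0 and 0.122 CPM in Cul5 cKO, without overlap. It held 3.76% ± 2.1 (SD, n = 3) of the gene's counts in WT, but because it is short it made 2.33 of the gene's 8.58 mean TPM, against 0.299 of 5.80 in Cul5 cKO. These differences rest on between 0 and 13.7 estimated counts per sample.

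For Cyp1b1 the table followed 1 transcript, Cyp1b1-201 (5128 bases), with an SD of 0.034. This transcript was at 1.34, 1.12 and 1.31 CPM in WT and at 2.46, 2.44 and 1.90 CPM in Cul5 cKO, so that every Cul5 cKO sample was above every WT sample and the means stood 1.81-fold apart. Cyp1b1-202 (3398 bases) was at 1.09, 1.57 and 0.719 CPM in WT and at 0.755, 1.33 and 0.369 CPM in Cul5 cKO, with overlap. Cyp1b1-201 took 53.7% ± 11 (SD, n = 3) of the gene's counts in WT and 75.0% ± 9.5 in Cul5 cKO. With reads of 50 bp and no strand information used here, the division between transcripts is an estimate by the authors' software, and in WT replicate 3 it concerns 5.16 and 2.84 estimated counts.

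**Figure D3:**
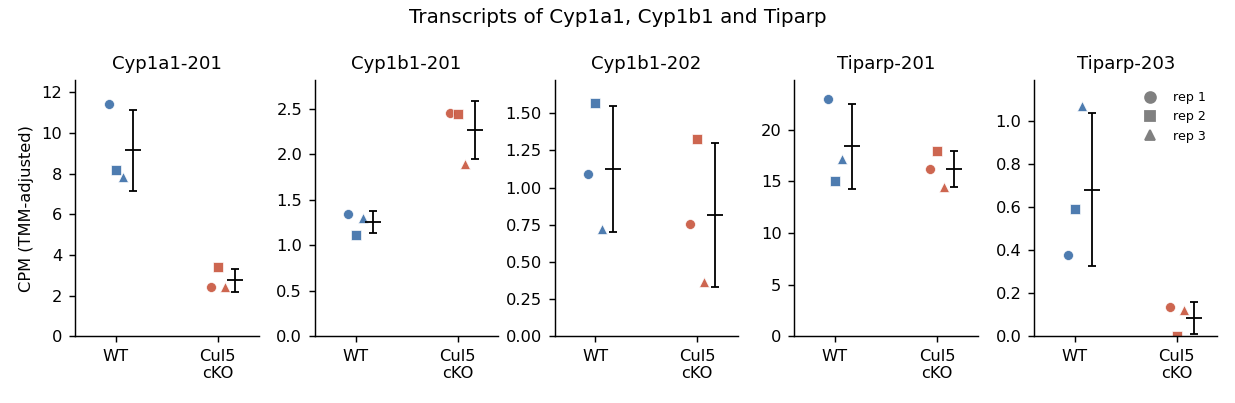
CPM of 5 transcripts, from their estimated counts, in the WT (blue) and Cul5 cKO (red) samples; the symbol gives the replicate number and the black bar the mean ± SD, and each vertical axis starts at 0. Cyp1a1-201, Cyp1b1-201 and Tiparp-203 do not overlap between the genotypes, with means of 9.15 and 2.77, 1.25 and 2.27, and 0.680 and 0.0861 in WT and Cul5 cKO, while Cyp1b1-202 and Tiparp-201 overlap.

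All counts of Cyp1a1 were on Cyp1a1-201 and all those of Nqo1 on its single transcript, so no such division arises in either. Cyp1a1-202, whose first base lies 9685 bases before the start used for the promoter window, was at 0 in every sample. In Ahrr the coding Ahrr-201 held 87.6% ± 2.5 (SD, n = 3) of the counts in WT and 79.2% ± 3.1 in Cul5 cKO, without overlap, and Ahrr-205, which retains an intron, held 11.5% ± 2.5 and 15.8% ± 0.40. In counts, Ahr was almost all Ahr-202 (96.0% ± 5.3 and 98.9% ± 1.7), and Arnt was mainly Arnt-202 (56.9% ± 8.1 and 57.9% ± 5.5) and Arnt-203 (26.4% ± 1.8 and 31.5% ± 4.6). The short Ahr-201 (1155 bases) made 1.81 of the 11.1 mean TPM of Ahr in WT, against 0.473 of 8.41 in Cul5 cKO. It rests on between 0 and 22.6 estimated counts per sample.

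Replicate 1 stood apart from replicates 2 and 3 in several of the genes. On the log2 CPM scale, Ahrr in replicate 1 was 1.17 above the mean of replicates 2 and 3 in WT and 0.69 above it in Cul5 cKO. For Ahr this difference was -0.32 in WT and -0.82 in Cul5 cKO. Nqo1 was 0.85 above in WT and 0.15 above in Cul5 cKO. Cyp1a1 was 0.51 above in WT and its difference was -0.24 in Cul5 cKO. Cyp1a1 had a log2 fold change of -1.45, and Tiparp of -0.03, when only replicates 2 and 3 were kept. Over the 6 samples, which share their libraries and the genotype difference, Pearson's r in log2 CPM was 0.86 between Ahrr and Tiparp, 0.80 between Ahrr and Nqo1, and -0.69 between Ahr and Arnt. Cyp1a1 had an r of 0.67 with Tiparp, 0.43 with Ahrr, 0.40 with Ahr and -0.45 with Cyp1b1.

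Cyp1a1 and Cul5 lie on the same chromosome, 4018 kb apart, which is why the genes around Cyp1a1 were examined. Of 20 genes within 250 kb, 13 were tested, and their median log2 fold change was -0.01. Sema7a, which encodes a membrane semaphorin, rose in Cul5 cKO at a distance of 236 kb (0.79 ± 0.093 (SE), adjusted p = 0.0170 by edgeR with Benjamini-Hochberg adjustment). Its adjusted p was over 0.05 when WT replicate 2 or 3 or Cul5 cKO replicate 2 or 3 was left out. Over all 6 omissions its log2 fold changes lay between 0.72 and 0.88. Sema7a was 1 of 13 neighbours called by edgeR, against 1.03% of all genes tested. DESeq2 called 3 (Sema7a, Cox5a and Ubl7), against 748 of the 12799 genes tested there. With replicates 2 and 3 alone edgeR called 2 (Sema7a and Ubl7), against 1153 of 13055 genes. Without WT replicate 1 it called the same 2, against 316 of 13213 genes. CPM did not overlap in 5 of the 13, against 27.5% of all genes. The nearest tested gene, Edc3, an mRNA decapping factor 4.72 kb downstream, had a log2 fold change of -0.11, and Csk, a kinase that restrains T cell receptor signalling, had -0.01. Cyp1a2, the paralog of Cyp1a1 that lies 4.23 kb upstream and is mainly a liver enzyme, had 0 counts in every sample, where 3 counts would correspond to between 0.128 and 0.759 CPM. Of 36 tested genes between Cul5 and Cyp1a1, 0 were called by edgeR, against 1.03% of all genes, and 2 by DESeq2, against 748 of 12799. Of the 36, 9 had an unadjusted p under 0.05, against 21.3% of all genes. The median log2 fold change of the 36 was 0.02.

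**Figure D4:**
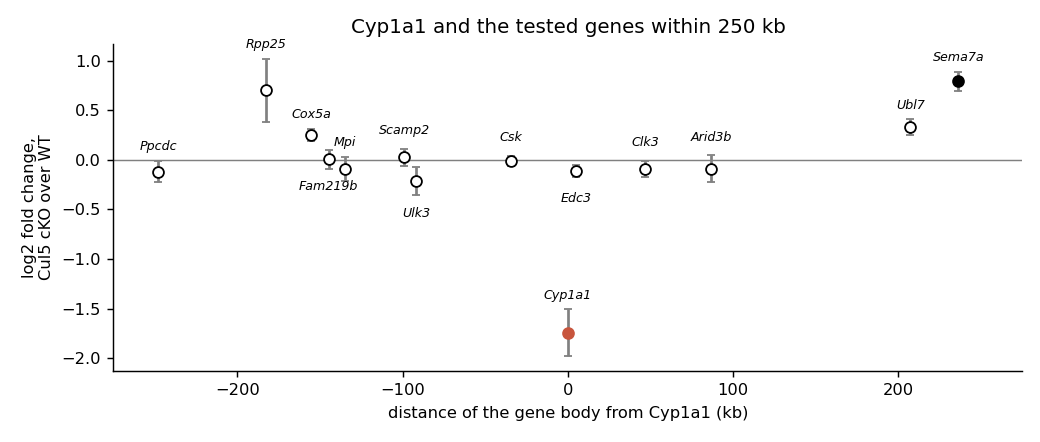
Log2 fold change (Cul5 cKO over WT, ± SE) of Cyp1a1 (red) and the 13 tested genes within 250 kb, against the distance of the gene body from Cyp1a1 in kb, negative toward the start of the chromosome. Sema7a at 236 kb (filled black, 0.79) is the neighbour that passed the test, and no neighbour lies near the -1.74 of Cyp1a1.

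Other genes of the pathway were counted in 6 lists of 71 genes, of which 56 were tested. Of these 56, 3 passed the test, Maf and G6pdx higher and Ccr6 lower in Cul5 cKO, against 1.03% of all genes tested. An unadjusted p under 0.05 was found in 20, 16 higher and 4 lower, against 21.3% of all genes, and 24 did not overlap in CPM, against 27.5%. Their median log2 fold change was 0.17, against -0.01 over all genes tested. The DESeq2 counts given below for each list stand against 748 called of the 12799 genes tested with DESeq2.

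Genes of the receptor complex came first. In the list of partners and chaperones all 9 genes were tested, 0 passed with edgeR and 1 with DESeq2 (Hif1a), and 5 had an unadjusted p under 0.05, 4 of them higher. Hif1a, the hypoxia factor that competes for ARNT, had the largest log2 fold change, 0.49 ± 0.10 (SE, adjusted p = 0.0724 by edgeR with Benjamini-Hochberg adjustment, 0.00057 to 0.259 over the alternatives). Its relative Epas1 had the smallest, -0.75 ± 0.29 (SE), and Hsp90ab1, the HSP90 that holds AHR in the cytosol and the most abundant of the list, had 0.16 ± 0.056 (SE). Of the 7 genes of AHR turnover and the CUL4B ligase, a cullin complex of which AHR is a known subunit, 0 passed with edgeR and 0 with DESeq2, 0 had an unadjusted p under 0.05, and the values ran from -0.09 for Cul4b to 0.20 for Tbl3, with Ddb1, the most abundant, at 0.09.

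Among further genes of the AHR battery, 5 of 11 were tested, and Cyp1a2, Aldh3a1, Ugt1a6b, Gsta1, Gsta2 and Serpinb2 were too low. Of the 5, 0 passed with edgeR and 1 with DESeq2 (Tgm2), and 3 had an unadjusted p under 0.05. Cyp2s1, a P450 enzyme that AHR also induces, was at 3.54, 3.98 and 4.30 CPM in WT and at 2.95, 2.15 and 2.40 CPM in Cul5 cKO, and its log2 fold change was -0.64 ± 0.23 (SE) with an adjusted p of 0.173 (edgeR, Benjamini-Hochberg; 0.0959 to 0.447 over the alternatives). Its Cul5 cKO samples were all below its WT samples. Tgm2, a transglutaminase, was at 22.2, 6.32 and 10.4 CPM in WT and at 123, 48.4 and 60.4 CPM in Cul5 cKO, and its log2 fold change was 2.52 ± 0.53 (SE) with an adjusted p of 0.0741 (edgeR, Benjamini-Hochberg; 0.000224 to 0.252 over the alternatives). The groups did not overlap, and replicate 1 was the highest of each genotype. Tgm2 is also made by macrophages, and the myeloid marker sums of the same samples were 4.27, 8.65 and 7.34 CPM in WT and 3.91, 12.8 and 3.69 CPM in Cul5 cKO. Their part in the difference was not tested. Nfe2l2, which encodes NRF2 and had the highest mean TPM of the list over the 6 samples, though not in Cul5 cKO alone, where Tgm2 was higher, had a log2 fold change of -0.09.

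**Figure D5:**
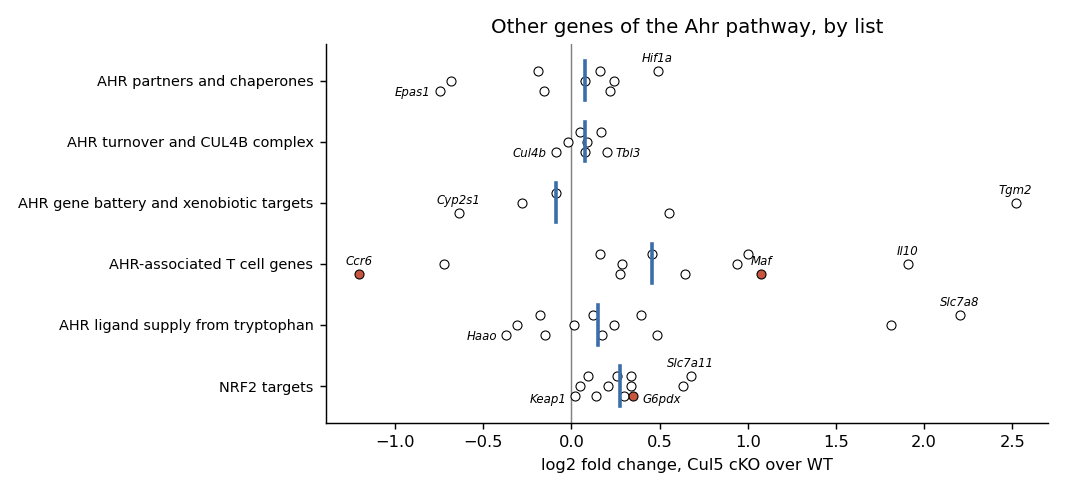
Log2 fold change (Cul5 cKO over WT) of the 56 tested genes in 6 lists related to AHR, 1 point a gene, with genes at an adjusted p under 0.05 in red and the median of each list as a blue bar; vertical spread within a list only separates the points. Maf and G6pdx (higher) and Ccr6 (lower) are the 3 genes in red, and all 12 points of the NRF2 list lie above 0.

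Of the T cell genes linked to AHR, 11 of 15 were tested, and 2 passed with edgeR (Maf and Ccr6) and 3 with DESeq2 (Il10 in addition). Maf, a transcription factor that works with AHR on Il10 and Il21 in Tr1 cells, was at 25.3, 34.4 and 35.4 CPM in WT and at 61.9, 66.5 and 69.4 CPM in Cul5 cKO, and rose by 1.07 ± 0.13 on the log2 scale (SE, adjusted p = 0.0185 by edgeR with Benjamini-Hochberg adjustment). Ccr6, a chemokine receptor of Th17 cells and B cells, was at 12.1, 16.3 and 14.2 CPM in WT and at 7.04, 4.82 and 6.62 CPM in Cul5 cKO, and fell by 1.20 ± 0.19 on the log2 scale (SE, adjusted p = 0.0390 by edgeR with Benjamini-Hochberg adjustment). Neither gene overlapped between the genotypes. The B cell marker sums of Cul5 cKO replicates 1, 2 and 3 were 42.2, 35.5 and 121 CPM, against at least 82.0 CPM in every WT sample, so that replicate 2 was the lowest of the 6 samples in both Ccr6 and the B cell markers. Their part in the fall of Ccr6 was not tested. The call of Maf was lost when WT replicate 2 or 3 or Cul5 cKO replicate 2 or 3 was left out, and that of Ccr6 when any sample but WT replicate 1 was, with log2 fold changes from 0.92 to 1.16 and from -1.32 to -1.05. Over all 18 alternatives Maf passed in 12 and Ccr6 in 9. Neither passed with limma on log2 TPM with pseudocounts of 1 and 0.1. Ccr6 also did not pass with counts scaled from TPM or with limma on the authors' table.

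Il10, the anti-inflammatory cytokine that AHR and MAF control in Tr1 cells, was at 7.34, 1.99 and 4.05 CPM in WT and at 24.0, 17.0 and 10.2 CPM in Cul5 cKO, and its log2 fold change was 1.91 ± 0.50 (SE) with an adjusted p of 0.110 (edgeR, Benjamini-Hochberg; 0.000823 to 0.310 over the alternatives). Every Cul5 cKO sample was above every WT sample, but the spread within each genotype was wide. Ikzf3, the most abundant of this list and an Ikaros family factor, had a log2 fold change of 0.29 ± 0.12 (SE). Il22 and Il23r, classical AHR dependent genes of Th17 and Th22 cells, had 0 counts in every sample, and Il17a and Il21 were too low to be tested.

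Genes that supply AHR ligands from tryptophan gave 12 tested of 16, with 0 passing by edgeR and 1 by DESeq2 (Slc3a2), and 3 with an unadjusted p under 0.05. Slc3a2, which forms the large neutral amino acid transporter with SLC7A5, had the highest mean TPM of the list over the 6 samples and was at 158 ± 9.6 CPM (SD, n = 3) in WT and 208 ± 15 CPM in Cul5 cKO, and its log2 fold change was 0.39 ± 0.078 (SE) with an adjusted p of 0.0694 (edgeR, Benjamini-Hochberg; 0.0018 to 0.253 over the alternatives). Slc7a8, another partner of Slc3a2, had the largest value, 2.20 ± 1.0 (SE), but it came from a single library, as Cul5 cKO replicate 2 was at 9.38 CPM and the other 5 samples were between 0.391 and 1.69 CPM. Without that library it was 0.34. The same library held the most myeloid markers (12.8 CPM), and their part in the value was not tested. Haao, an enzyme late in the kynurenine pathway, had the smallest, -0.37 ± 0.27 (SE). Ido1, Ido2 and Tdo2, which open the pathway, and Aadat were too low to be tested.

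Targets of NRF2, which shares Nqo1 with AHR, were tested in 12 of 13 genes, of which 1 passed with edgeR and 2 with DESeq2, and 6 had an unadjusted p under 0.05, all of them higher. The log2 fold change was above 0 in all 12, with a median of 0.28, whereas 48.8% of all genes tested were above 0. Among the alternatives Keap1 was below 0 in 5 and Prdx1 in 4, and the count of 12 is one over genes that share the same 6 libraries. G6pdx, which makes NADPH, passed the test, at 114, 111 and 107 CPM in WT and at 138, 141 and 146 CPM in Cul5 cKO, and rose by 0.35 ± 0.060 on the log2 scale (SE, adjusted p = 0.0493 by edgeR with Benjamini-Hochberg adjustment, 0.000618 to 0.220 over the alternatives). It passed in 6 of 18 alternatives, and of the omissions only without WT replicate 1. Slc7a11, the cystine transporter, had the largest value, 0.68 ± 0.40 (SE), from 1 to 27 counts per sample. Keap1, the sensor that holds NRF2 back, had the smallest, 0.02 ± 0.067 (SE), and Prdx1, a peroxiredoxin and the most abundant of the list, had 0.09 ± 0.062 (SE). Nqo1 itself, at 0.09 ± 0.30 (SE), was below the median of this list.

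The genes most like Cyp1a1 over the 6 samples were Exd2, Sv2a, Atp1b1, 9530077C05Rik and Nudt16, with Pearson's r in log2 CPM from 0.989 to 0.996; they were picked as the 5 highest of the tested genes with a mean of at least 1 CPM. Atp1b1, a subunit of the sodium pump, was at 91.8, 76.8 and 77.9 CPM in WT and at 37.2, 45.4 and 32.3 CPM in Cul5 cKO, with a log2 fold change of -1.11. As in Cyp1a1, WT replicate 1 was the highest sample and Cul5 cKO replicate 2 the highest of its genotype. Sv2a, a synaptic vesicle protein, had -0.73 and Exd2, an exonuclease, -0.08, so a high r over 6 samples came with differences of very unlike size.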

How the data were processed

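RNA of 3 WT and 3 Cul5 cKO cultures was selected by the authors for poly-A, sequenced from one end over 50 bp, and assigned by kallisto 0.46.2 to the mouse transcripts of Ensembl (GRCm38), per the methods. The deposited files hold, per sample, estimated counts, which are not normalized, and TPM for 119414 transcripts. The authors also deposited a gene-level table of log2 CPM after TMM normalization in edgeR 3.34.0, with columns of their own fold changes and p-values, which were not used. kallisto divides reads among transcripts that share sequence, which affects transcripts of low count most.

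Estimated counts were summed by gene (GENCODE vM21, GRCm38, 97.7% of transcripts matched, 0.958% to 1.04% of counts unmatched) and rounded. They were tested in R 4.3.3 with edgeR 4.0.16 (default expression filter, TMM, quasi-likelihood test, Benjamini-Hochberg adjustment, genotype as the only term), a script checked on simulated data. Alternatives used DESeq2 1.42.0, limma 3.58.1, TPM with pseudocounts of 1 and 0.1, other filters and scalings, a replicate block, and omission of each sample. Intervals of counts are exact Poisson intervals at 95% and cover counting error only. Python 3.11.15, numpy 2.4.6, pandas 2.3.3, scipy 1.17.1 and matplotlib 3.10.9 were used for the rest. Depth was 3944803 counts in WT replicate 3 and at least 23111689 elsewhere.

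The 7 genes and the lists were chosen with earlier results of these data known. Besides the 7 genes and Cul5, the text names by rule, in each list, the genes called, those with the largest and smallest log2 fold change and the most abundant by mean TPM over all samples, the tested neighbours of Cyp1a1, and the 5 genes most correlated with it. Members of these groups named beyond this (Il22, Il23r, Cd28 and genes too low to be tested) were chosen after their values were seen. Promoter windows came from RefSeq (GRCm38.p6).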

Additional observations from a re-analysis of the deposited data

How the results depend on the processing

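Cyp1a1 was lower in Cul5 cKO under all 18 alternatives, with a log2 fold change from -1.92 to -1.26 (the latter with log2(TPM + 1)) and from -1.92 to -1.53 when each sample was left out. Of the other members, Arnt (-0.18 to -0.0042), Tiparp (-0.55 to -0.03) and Cyp1b1 (0.10 to 0.82 in 17 alternatives, since a minimum of 10 counts in every sample removed it) kept their sign. Ahr (-0.42 to 0.01) and Ahrr (-0.64 to 0.18) changed sign once each and Nqo1 (-0.09 to 0.48) in 3 alternatives.

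The number of genes called, 133, was 748 with DESeq2, 228 without the filter, 61 with counts scaled from TPM, 41 with limma on the authors' table, 27 and 30 on the log2 scale of TPM with pseudocounts of 1 and 0.1, 1153 with replicates 2 and 3 alone and between 2 and 316 when each sample was left out. For the pathway lists the number, 3, was 8, 5, 1, 1, 0, 0 and 10 in the same order and between 0 and 7. For the neighbours of Cyp1a1 the number, 1, was 3 with DESeq2, 0 and 0 on TPM, 2 with replicates 2 and 3 alone and between 0 and 2. The cause of these shifts was not tested. Apart from the replicate block below, the other counts were within 1.5 times.

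The replicate numbers were not taken to pair the samples: deviations of samples with the same number correlated at 0.37, 0.21 and 0.02, and not every sample correlated best with its own number. With the replicate block 848 genes and 9 pathway list genes were called, and Cyp1a1 had -1.72. The longer promoter window that had been planned was not run, as no genome was used here. Depth limits Cyp1b1 and the transcripts most, through WT replicate 3.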
